A study of Homo sapiens with 6 samples.

Results

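The genes described here are 56 genes that dividing cells need to copy and to segregate their chromosomes. They were chosen by symbol, as known genes of DNA replication and mitosis, out of 33841 genes in the count table, and all 56 were present and passed the filter on low counts. They were read as 22 S-phase genes (cyclin E and its kinase, origin licensing, fork proteins, nucleotide supply and E2F factors) and 34 mitotic genes (cyclins A and B with CDK1, mitotic kinases, spindle checkpoint, kinetochore, kinesins, spindle and cytokinesis). RNA was sequenced in LN229, an established line of human glioblastoma cells. There were 3 biological replicates of the parental cells (WT, PARP3+/+) and 3 of cells whose PARP3 gene was cut and disrupted by CRISPR/Cas9 (PARP3-/-). The description of the series places the disruption between exon 2 and exon 9, whereas the study names guides against exon 2 and an exon before exon 9. PARP3 encodes an enzyme that adds ADP-ribose to proteins. Both genotypes were grown as proliferating cultures in the same serum-containing medium, with no drug and no synchronisation named in the labels. The study isolated single PARP3-/- clones of LN229, and the labels do not say which clone was sequenced, so that the genotype and the history of a clone cannot be told apart. Nothing in the labels says that replicates were grown on separate days, so p-values measure only the spread between these libraries.

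A dividing cell turns these genes on in waves. E2F factors, once released from the retinoblastoma protein, switch on the genes that load the MCM helicase onto origins, build the replication fork and make nucleotides. MYBL2 and FOXM1 then act with the MuvB complex on the genes of G2 and mitosis, whose promoters often hold the CHR (cell cycle genes homology region) and CCAAT elements, and most of these transcripts are scarce in cells that rest.

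Totals on genes ran from 29692065 to 46010369 counts, and in each genotype the library of replicate 1 was the shallowest. Levels are given as CPM, counts scaled to library size with TMM, and 3 counts, the smallest number read here as present, correspond to 0.0652 to 0.101 CPM (counting error only). PARP3 itself stood at 34.9, 22.4 and 24.3 CPM in WT replicates 1, 2 and 3 and at 19.1, 22.5 and 19.5 CPM in PARP3-/-, a log2 fold change of −0.42 (standard error 0.18, edgeR adjusted p = 0.307) without and −0.39 (edgeR adjusted p = 0.0469) with the replicate number in the model. The genotypes overlapped in PARP3 RNA, and libraries are therefore named by their labels throughout. Of the glioma markers, VIM lay between 3688 and 4382 CPM, and NES, S100B, SOX2 and OLIG2 were present in every library, while GFAP was at 0.0332 to 0.415 CPM. Markers of endothelial, immune and epithelial cells reached at most 0.712 CPM, and of the neuron markers RBFOX3 was at most at 0.0332 CPM and SYP at 1.77 to 3.01 CPM. Same-numbered libraries of both genotypes departed from their group means in a related way (Pearson's r across genes of 0.703, 0.552 and 0.268 in replicates 1, 2 and 3, genes not being independent). WT replicate 2 with PARP3-/- replicate 3 (0.444) and WT replicate 3 with PARP3-/- replicate 2 (0.284) correlated as well, so that numbers 2 and 3 were not told apart. Each genotype comparison below, except that of the histone genes, is therefore given without and with the replicate number as a block. In that block the pairing of numbers 2 and 3 rests on the labels alone.

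The promoters of these genes were searched for the letters of 3 elements known from such genes. RefSeq promoters (GRCh38.p14, 250 bases before to 50 bases after the start) were held for 17 of the 22 S-phase genes and 28 of the 34 mitotic genes. The search, on both strands, was for an E2F motif (TTTCCCGC, TTTCGCGC, TTTGCCGC or TTTGGCGC), a CHR motif (TTTGAA or TTCGAA) and CCAAT. An E2F motif was found in 12 of the 17 S-phase promoters (70.6%), including all 6 held for the licensing genes, in 3 of the 28 mitotic promoters (10.7%) and in 3.33% of all 27305 promoters. A CHR motif was found in 2 of the 17 S-phase promoters (11.8%), in 19 of the 28 mitotic promoters (67.9%) and in 16.6% of all promoters. CHR and CCAAT stood together in 15 mitotic promoters (53.6%), against 6.58% of all promoters. These are matches of letters in a fixed window and not mapped sites. The promoters of MCM7 and E2F1 are shown as examples of the S-phase form, PRC1 as the mitotic form in a gene called between genotypes with the replicate block and not without it, and CDK1 because it holds all 3 motifs. Capitals mark the matches, and in MCM7 a match to TTTCGCGC and one to CCAAT share a base. The sequences lie at chr7:100101348-100101647, minus strand, chr20:33686336-33686635, minus strand, chr15:90994486-90994785, minus strand, and chr10:60778081-60778380, plus strand.
MCM7: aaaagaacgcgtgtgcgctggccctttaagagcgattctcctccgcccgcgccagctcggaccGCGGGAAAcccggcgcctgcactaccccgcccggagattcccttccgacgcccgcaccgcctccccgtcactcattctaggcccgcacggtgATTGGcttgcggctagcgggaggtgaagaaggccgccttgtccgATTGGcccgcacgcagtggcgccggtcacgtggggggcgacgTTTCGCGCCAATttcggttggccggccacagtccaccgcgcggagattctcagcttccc
E2F1: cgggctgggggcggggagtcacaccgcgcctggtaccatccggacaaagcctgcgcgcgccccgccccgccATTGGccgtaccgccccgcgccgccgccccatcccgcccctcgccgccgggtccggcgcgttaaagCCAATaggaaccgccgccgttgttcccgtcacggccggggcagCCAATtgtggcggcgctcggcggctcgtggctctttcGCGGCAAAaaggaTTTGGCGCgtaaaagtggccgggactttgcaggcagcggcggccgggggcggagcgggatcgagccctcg
PRC1: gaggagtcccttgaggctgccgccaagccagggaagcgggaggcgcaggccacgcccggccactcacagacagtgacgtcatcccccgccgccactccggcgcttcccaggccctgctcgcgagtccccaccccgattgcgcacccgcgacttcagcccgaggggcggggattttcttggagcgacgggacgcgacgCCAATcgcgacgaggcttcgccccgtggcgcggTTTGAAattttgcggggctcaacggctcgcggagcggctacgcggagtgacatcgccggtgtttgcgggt
CDK1: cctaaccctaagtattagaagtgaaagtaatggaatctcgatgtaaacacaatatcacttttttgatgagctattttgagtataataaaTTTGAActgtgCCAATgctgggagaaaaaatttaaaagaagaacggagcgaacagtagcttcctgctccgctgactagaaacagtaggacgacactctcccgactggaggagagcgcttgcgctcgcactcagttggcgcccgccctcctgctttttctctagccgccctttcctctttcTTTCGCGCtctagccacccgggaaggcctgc

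Per kilobase of the MANE Select transcript, the level of UBE2C, the ubiquitin-conjugating enzyme of the anaphase-promoting complex, was the highest of the 56 in WT at 406 ± 109 CPM per kilobase (SD, n = 3). MCM7 followed at 315 ± 106 CPM per kilobase, PCNA at 285 ± 132 CPM per kilobase and TK1 at 155 ± 64.9 CPM per kilobase. The lowest levels were those of transcription factors and of cyclin E, with 8.79 ± 4.78 CPM per kilobase for E2F2, 6.98 ± 3.41 CPM per kilobase for CCNE1 and 5.36 ± 2.32 CPM per kilobase for E2F8. The SDs of UBE2C, MCM7 and PCNA overlapped, as did those of E2F2, CCNE1 and E2F8. Even CCNE1, whose CPM were the lowest, was at 6.63 CPM or more in every library.

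These genes differed first of all by replicate number. In a model with genotype and replicate number, all 22 S-phase genes and 32 of the 34 mitotic genes differed between replicate numbers (edgeR's quasi-likelihood test with Benjamini-Hochberg adjustment over all tested genes, adjusted p under 0.05), against 35.3% of the 17144 genes tested. All 54 were lower in replicate 1, a direction taken by 18.8% of tested genes. In the same 54 genes both replicate 1 libraries lay under all 4 others, as in 23% of tested genes. The S-phase genes fell furthest, with a median log2 difference between replicate 1 and the mean of replicates 2 and 3 of −1.08 (range −1.58 to −0.50), where all tested genes had a median of 0.01. For the mitotic genes it was −0.60 (range −1.08 to 0.06). In bulk RNA, fewer cycling cells and less of these transcripts per cell cannot be told apart. The replicate 1 libraries also had the fewest counts and, within each genotype, the largest share of mitochondrial counts (0.0618% in WT and 0.0476% in PARP3-/-, against 0.0295% to 0.0411% in the others), and the part of either in the difference was not tested.

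**Figure D1:**
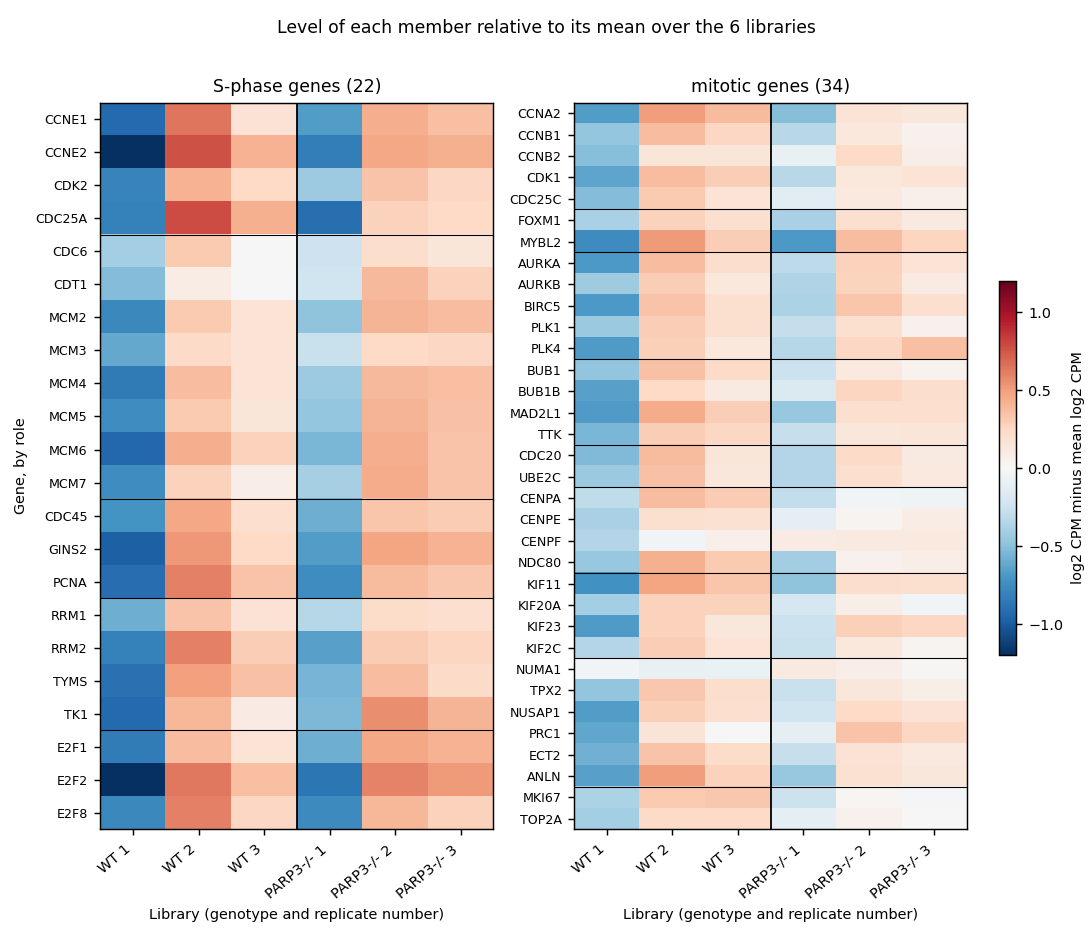
Heat map of the 56 genes (rows, grouped by role, S-phase genes left, mitotic genes right) in the 6 libraries (columns, genotype and replicate number). Colour gives log2 CPM minus the gene's mean over the libraries, and in 54 of the 56 genes both columns of replicate 1 are lower than the 4 others, the exceptions being NUMA1 and CENPF.

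Among the S-phase genes, the summed level fell from 5632 and 4872 CPM in WT replicates 2 and 3 to 2505 CPM in WT replicate 1, and from 5613 and 5366 to 3079 CPM in PARP3-/-. E2F2, an activator of S-phase genes, differed most. It stood at 17.7, 65.2 and 54.0 CPM in WT replicates 1, 2 and 3 and at 23.001, 63.4 and 60.0 CPM in PARP3-/-. Both replicate 1 libraries lay far under the rest, a log2 difference of −1.58 (standard error 0.08, edgeR adjusted p = 5.34e-06). E2F1, the best-known activator of the family, was at 72.5, 168 and 145 CPM in WT and at 86.1, 179 and 173 CPM in PARP3-/-, and its replicate 1 difference was −1.07 (standard error 0.06, edgeR adjusted p = 6.81e-06). The repressor E2F8 dropped by a similar amount, with a log2 difference of −1.16 (standard error 0.08, edgeR adjusted p = 1.94e-05). The cyclin E genes CCNE1 (−1.22) and CCNE2 (−1.55) and the phosphatase CDC25A (−1.30), which activates CDK2, were among the members with the largest log2 differences, and CDK2 itself fell by 0.93. A gene overlapping CCNE2 held more counts than CCNE2 itself (143% of its counts).

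Of the S-phase groups, the licensing genes had the smallest median difference (−0.88). CDT1, which loads the MCM helicase, was at 46.4, 70.7 and 66.1 CPM in WT and at 56.3, 87.2 and 80.5 CPM in PARP3-/-. Its replicate 1 difference of −0.57 (standard error 0.05, edgeR adjusted p = 7.22e-05) and that of its partner CDC6 (−0.50) were the smallest of the 22. MCM2, a helicase subunit, was at 180.3, 384 and 345 CPM in WT and at 221, 408 and 398 CPM in PARP3-/-. It differed by −0.94 (standard error 0.06, edgeR adjusted p = 1.48e-05), and the other helicase subunits lay between −1.11 (MCM6) and −0.66 (MCM3).

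PCNA, the sliding clamp of the polymerases, was at 175, 499 and 417 CPM in WT and at 196, 428 and 409.9 CPM in PARP3-/-. Replicate 1 was lower by more than 2-fold in both genotypes, with a log2 difference of −1.24 (standard error 0.08, edgeR adjusted p = 1.25e-05). GINS2, a subunit of the active helicase, was at 32.5, 92.4 and 75.6 CPM in WT and at 40.4, 89.4 and 85.9 CPM in PARP3-/-, a log2 difference of −1.24 (standard error 0.08, edgeR adjusted p = 9.40e-06). TK1, the thymidine salvage kinase, was at 119, 301 and 245 CPM in WT and at 157, 336 and 303 CPM in PARP3-/-. Its log2 difference was −1.10 (standard error 0.06, edgeR adjusted p = 7.38e-06), close to those of the ribonucleotide reductase subunit RRM2 (−1.10) and of thymidylate synthase, TYMS (−1.08), and larger in size than that of the other reductase subunit, RRM1 (−0.70). A gene overlapping TYMS held 25.6% of the counts of TYMS.

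The mitotic genes moved the same way by smaller steps. Their summed level was 5906 CPM in WT replicate 1 against 9932 and 9343 CPM in replicates 2 and 3, and 7122 CPM in PARP3-/- replicate 1 against 9258 and 8908 CPM. MYBL2, the transcription factor that acts at the turn from S-phase to G2 genes, fell furthest. It was at 114, 275 and 236 CPM in WT and at 119, 248 and 230.4 CPM in PARP3-/-, a log2 difference of −1.08 (standard error 0.06, edgeR adjusted p = 7.38e-06). FOXM1, which acts later in G2, was at 75.9, 121 and 114 CPM in WT and at 75.9, 114 and 107 CPM in PARP3-/-, with a log2 difference of −0.58 (standard error 0.05, edgeR adjusted p = 6.92e-05). FOXM1 overlaps other genes on the chromosome, the largest of which held 59.3% of its counts.

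CDK1, the kinase that drives entry into mitosis, was at 143, 284 and 271 CPM in WT and at 175, 241 and 248 CPM in PARP3-/-. Its partner CCNB1 was at 195, 349 and 321 CPM in WT and at 214, 296 and 280.1 CPM in PARP3-/-. Replicate 1 was again lowest in both genotypes, by −0.72 (standard error 0.09, edgeR adjusted p = 5.85e-04) for CDK1 and by −0.60 for CCNB1 on the log2 scale. The other cyclins fell by 0.88 (CCNA2) and 0.44 (CCNB2), and the CDK1 phosphatase CDC25C by 0.49, where a gene overlapping CDC25C held 331% of its counts.

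Subunits of the chromosomal passenger complex and the centriole kinase PLK4 were 3 of the 5 mitotic genes with the smallest p for replicate number, beside MYBL2 and FOXM1. AURKB, the kinase of that complex, was at 53.3, 88.3 and 78.2 CPM in WT and at 55.9, 86.2 and 76.9 CPM in PARP3-/-, a log2 difference of −0.59 (standard error 0.05, edgeR adjusted p = 6.42e-05). BIRC5 (survivin), another subunit, was at 169, 347 and 312 CPM in WT and at 210.0, 344 and 315 CPM in PARP3-/-, with a difference of −0.80 (standard error 0.07, edgeR adjusted p = 7.17e-05). Both replicate 1 libraries lay under the 4 others in each. PLK4 was at 44.3, 87.1 and 77.5 CPM in WT and at 56.3, 84.7 and 91.4 CPM in PARP3-/-, a difference of −0.77 (standard error 0.08, edgeR adjusted p = 1.21e-04). AURKA (−0.75) and PLK1 (−0.55), the kinases of spindle assembly, differed in the same direction.

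The 4 spindle checkpoint genes differed by −0.84 (MAD2L1) to −0.55 (BUB1), and BUB1B, the checkpoint subunit BubR1, was at 101, 187 and 171 CPM in WT and at 140.3, 189.7 and 183 CPM in PARP3-/-. CDC20 and UBE2C, which work with the anaphase-promoting complex that the checkpoint restrains, differed by −0.66 and −0.60. The kinesins ranged from −0.90 for KIF11, the motor that pushes spindle poles apart, to −0.45 for KIF20A of the central spindle.

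The kinetochore group had the smallest median difference (−0.41). CENPA, the centromeric histone, was at 38.2, 61.2 and 58.7 CPM in WT and at 38.6, 46.4 and 45.8 CPM in PARP3-/-, with a log2 difference of −0.45 (standard error 0.08, edgeR adjusted p = 0.00430). NDC80, which binds microtubules at the kinetochore, was at 39.8, 73.6 and 68.0 CPM in WT and at 40.9, 56.5 and 57.7 CPM in PARP3-/-, with −0.66 (standard error 0.08, edgeR adjusted p = 3.71e-04). Of the mitotic genes, 2 did not pass the test for replicate number. CENPF, a large kinetochore protein, was at 677, 844 and 901 CPM in WT and at 929.6, 936 and 941 CPM in PARP3-/-, a difference of −0.19 (standard error 0.08, edgeR adjusted p = 0.199). Its WT replicate 1 library was low, and its PARP3-/- libraries lay close together. NUMA1, a spindle pole protein that sits in the nucleus of interphase cells, was at 533, 511 and 515 CPM in WT and at 587, 574 and 549 CPM in PARP3-/-, a difference of 0.06 (standard error 0.06, edgeR adjusted p = 0.657).

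The proliferation marker MKI67, which coats mitotic chromosomes, was at 132, 214 and 217 CPM in WT and at 145, 176 and 170.0 CPM in PARP3-/-. TOP2A, the topoisomerase that untangles sister chromatids, was at 568, 882 and 888 CPM in WT and at 692, 778 and 749.7 CPM in PARP3-/-. The replicate 1 difference was −0.48 (standard error 0.09, edgeR adjusted p = 0.00489) for MKI67 and −0.38 (standard error 0.10, edgeR adjusted p = 0.0282) for TOP2A. Both were near the small end of the mitotic list.

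**Figure D2:**
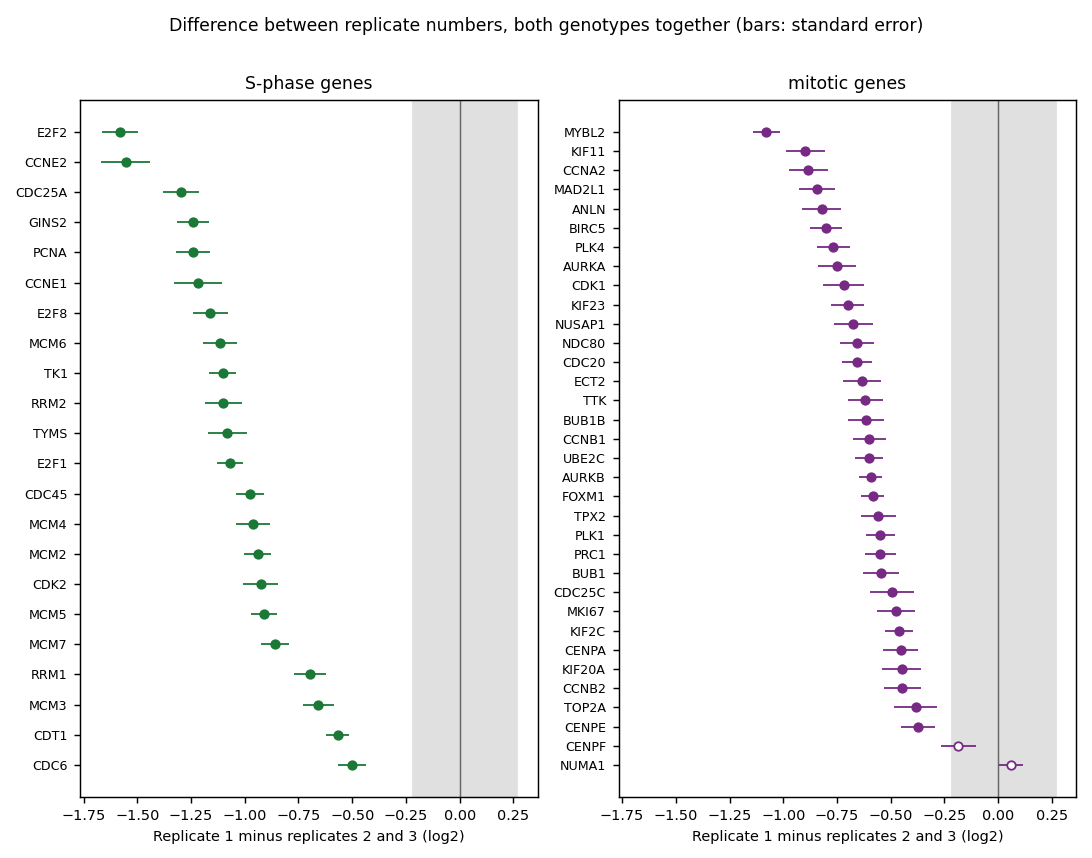
Log2 difference of replicate 1 from the mean of replicates 2 and 3, with genotype in the model (horizontal axis), for each S-phase gene (left) and mitotic gene (right), with its standard error. Filled points passed the test for replicate number, and the grey band holds the middle 50% of all tested genes (−0.22 to 0.27). The S-phase gene nearest to 0 is CDC6 at −0.50, and CENPF and NUMA1 are the open points.

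Replicates 2 and 3 differed as well, by less. Replicate 3 was under replicate 2 in all 22 S-phase genes (median log2 difference −0.15) and in 32 of the 34 mitotic genes (median −0.09), the exceptions being CENPE and CENPF. Replicate 1 minus the mean of replicates 2 and 3 was the lower value in WT for 55 of the 56 genes, as in 50% of tested genes, with CDT1 the exception. For NUMA1 the value was above 0 in both genotypes. The medians were −1.16 in WT and −0.92 in PARP3-/- for the S-phase genes and −0.77 and −0.43 for the mitotic genes. For CDK1 it was −0.96 in WT and −0.49 in PARP3-/-, and for E2F1 −1.10 and −1.03. With 1 replicate 1 library per genotype, this difference between genotypes was not tested. The replicate 1 difference was also read by promoter motif, as a description. S-phase genes with an E2F motif had a median of −1.08 (n = 12) and those without −1.10 (n = 5), and mitotic genes with a CHR motif had a median of −0.63 (n = 19) and those without −0.49 (n = 9).

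Between genotypes, with the replicate number left out of the model, 0 of the 22 S-phase genes were called lower and 0 higher in PARP3-/- (edgeR, adjusted p under 0.05), where 3.33% of tested genes were called lower and 1.36% higher (4.7% in all). DESeq2 called 0 as well, and at an unadjusted p under 0.05, which 16.3% of tested genes passed, the number was also 0. The log2 fold changes ran from −0.32 (CDC25A) to 0.29 (CDT1) with a median of 0.07, beside −0.01 for all tested genes. That median depended on single libraries and was −0.23 without WT replicate 1, 0.32 without WT replicate 2 and 0.29 without PARP3-/- replicate 1. The 95% intervals extended a median of 0.89 on the log2 scale to either side, so that changes of about that size in the S-phase genes were not detectable in this comparison. For MCM7 the interval ran from −0.50 to 0.98 and for E2F2 from −1.16 to 1.35.

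With the replicate number as a block, the same libraries called 6 S-phase genes higher (27.3% of the 22, background 11.8%) and 1 lower (4.55%, background 12.5%). The higher genes were 4 of the 8 licensing genes, TK1 and E2F1. CDT1 (chromosome 16 from 88803213 to 88809258 in hg38) rose by 0.29 (standard error 0.05, edgeR adjusted p = 0.00133) on the log2 scale and was higher in PARP3-/- by 0.28, 0.30 and 0.28 in the pairs of replicates 1, 2 and 3. It was one of 8 S-phase genes higher in all 3 pairs, as were 27.1% of tested genes. MCM7 (chromosome 7 from 100092728 to 100101940) had 0.26 (standard error 0.06, edgeR adjusted p = 0.00975), MCM2 (chromosome 3 from 127598223 to 127622436) 0.19 (standard error 0.06, edgeR adjusted p = 0.0289) and MCM5 (chromosome 22 from 35400063 to 35425430) 0.19 (standard error 0.06, edgeR adjusted p = 0.0290). MCM4 was at 0.21 (standard error 0.07, edgeR adjusted p = 0.05002), just outside the limit, and passed it in DESeq2 with the block (adjusted p = 0.0359). MCM3 and MCM6 did not pass it in either tool. TPRA1, which overlaps MCM2, held 11.1% of the counts of MCM2. TK1 (chromosome 17 from 78174075 to 78187233) had 0.29 (standard error 0.06, edgeR adjusted p = 0.00431), and E2F1 (chromosome 20 from 33675683 to 33686404) had 0.20 (standard error 0.05, edgeR adjusted p = 0.0198).

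CDC25A (chromosome 3 from 48157146 to 48188402) was the S-phase gene called lower. It was at 26.2, 79.4 and 62.1 CPM in WT and at 24.6, 55.7 and 54.3 CPM in PARP3-/-, with a log2 fold change of −0.28 (standard error 0.07, edgeR adjusted p = 0.0188) with the block and −0.32 (standard error 0.45, edgeR adjusted p = 0.837) without it. PARP3-/- was lower in all 3 pairs, by 0.09, 0.51 and 0.19 on the log2 scale, a direction shared by 27.2% of tested genes in all pairs. Without the block, each genotype's replicate 1 library lay under the other genotype's replicates 2 and 3. The cyclin E genes that work with CDC25A did not pass the test, at 0.06 (adjusted p = 0.721) for CCNE1 and 0.01 (adjusted p = 0.970) for CCNE2 in edgeR. The fork proteins CDC45 (0.03 (adjusted p = 0.775)), GINS2 (0.14 (adjusted p = 0.161)) and PCNA (−0.03 (adjusted p = 0.823)) did not pass the test either. GSE1, which overlaps GINS2, held 21.5% of the counts of GINS2.

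The genes around some of these lay on the same side. The median log2 fold change with the block, over the tested genes within 10 Mb on either side, was −0.21 around CDC25A (225 genes), 0.17 around TK1 (232) and 0.15 around MCM7 (194). It was 0.03 around CDT1 (107), −0.01 around MCM2 (131), −0.06 around MCM5 (236) and −0.07 around E2F1 (156). CDC25A, TK1 and MCM7 thus changed in the direction of their regions, and the part of the region in their difference was not tested. CDT1, MCM2, MCM5 and E2F1 rose where the regional medians lay between −0.07 and 0.03.

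Among the 34 mitotic genes, the comparison without the block also called 0 lower and 0 higher in edgeR and in DESeq2, and 0 had an unadjusted p under 0.05. The log2 fold changes ran from −0.27 (CENPA) to 0.30 (PRC1), with a median of −0.05. Without WT replicate 1 that median was −0.25. The smallest adjusted p was that of CENPF, with a log2 fold change of 0.21 (standard error 0.12, edgeR adjusted p = 0.494) and an interval from −0.08 to 0.51. CENPF and NUMA1, which had not passed the test for replicate number, were the members whose genotypes did not overlap (2 of 56, against 22.8% of tested genes). In the other 54 both replicate 1 libraries lay under all others, so that their genotypes had to overlap. The count therefore says nothing on the size of the genotype difference. For NUMA1 the log2 fold change was 0.13 (standard error 0.08, edgeR adjusted p = 0.513). The proliferation marker MKI67 had −0.20 (standard error 0.20, edgeR adjusted p = 0.729), TOP2A −0.07 (standard error 0.18, edgeR adjusted p = 0.920), CCNB1 −0.13 (standard error 0.23, edgeR adjusted p = 0.877) and CDK1 −0.07 (standard error 0.27, edgeR adjusted p = 0.956). Their intervals were −0.66 to 0.26, −0.50 to 0.35, −0.68 to 0.41 and −0.71 to 0.57.

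With the block, 1 mitotic gene was called higher and 1 lower (2.94% of the 34 each, background 11.8% and 12.5%). PRC1 (chromosome 15 from 90966038 to 90995629), which bundles the antiparallel microtubules of the spindle midzone, was at 288, 491 and 440.0 CPM in WT and at 409.7, 561 and 526 CPM in PARP3-/-. It was higher in all 3 pairs, by 0.51, 0.19 and 0.26 on the log2 scale, and its fold change was 0.32 (standard error 0.07, edgeR adjusted p = 0.00565). The tested genes within 10 Mb of PRC1 had a median of 0.22 (138 genes), on the same side, and its part was not tested. CENPA (chromosome 2 from 26764289 to 26801067) was lower by −0.26 (standard error 0.08, edgeR adjusted p = 0.0304), with pair differences of 0.01, −0.40 and −0.36, so that the difference came from replicates 2 and 3. DESeq2 with the block did not call CENPA (adjusted p = 0.0624) but called CENPF higher (adjusted p = 0.0304). SLC35F6, which overlaps CENPA, held more counts than CENPA itself (117% of its counts), and whether counting used strand is not given in the sources used here. NDC80 (−0.20 (standard error 0.07, edgeR adjusted p = 0.0664)), CENPF (0.22 (standard error 0.08, edgeR adjusted p = 0.0563)), BUB1B (0.20 (standard error 0.08, edgeR adjusted p = 0.0918)) and PLK4 (0.17 (standard error 0.07, edgeR adjusted p = 0.0931)) followed without passing the limit. FOXM1 (−0.06 (adjusted p = 0.435)), MYBL2 (−0.04 (adjusted p = 0.652)), AURKB (0.002 (adjusted p = 0.986)) and BIRC5 (0.10 (adjusted p = 0.308)) were further from it.

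**Figure D3:**
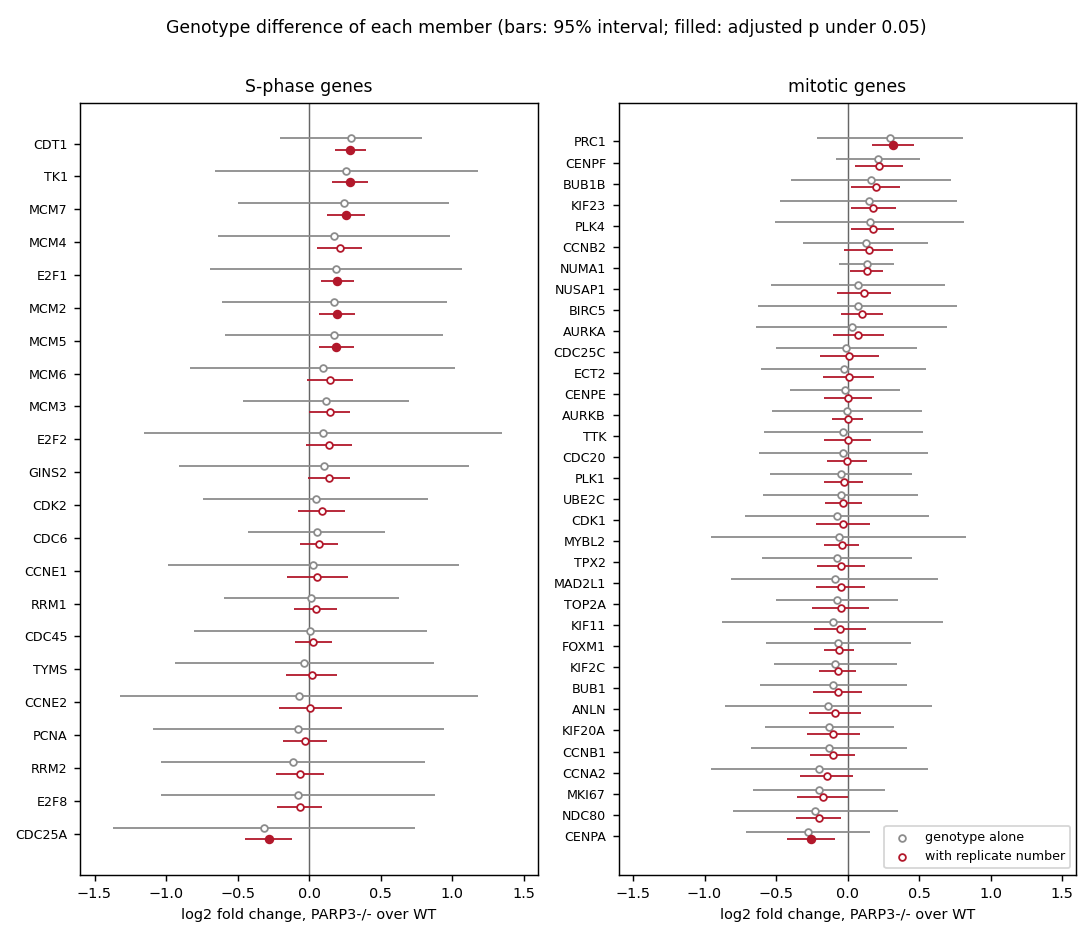
Log2 fold change of PARP3-/- over WT (horizontal axis) with its 95% interval, for each S-phase gene (left) and mitotic gene (right), without (grey) and with (red) the replicate number in the model. The intervals are narrower with the block, and the filled points are the 6 S-phase genes called higher, CDC25A called lower, PRC1 called higher and CENPA called lower.

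The direction of the genotype difference was not the same in each pair, above all in the mitotic genes. In the pair of replicate 1, PARP3-/- was over WT in 21 of 22 S-phase genes and in all 34 mitotic genes, among which FOXM1 differed by only 0.0003, where 49.5% of tested genes were. In the pair of replicate 2 this held for 8 S-phase and 6 mitotic genes (background 49.3%), and in the pair of replicate 3 for 18 S-phase and 7 mitotic genes (background 51.2%). The median log2 differences in pairs 1, 2 and 3 were 0.29, −0.06 and 0.12 for the S-phase genes and 0.22, −0.16 and −0.10 for the mitotic genes. For CDK1 the pair differences were 0.29, −0.24 and −0.13, for CCNB1 0.13, −0.24 and −0.20, for MKI67 0.13, −0.29 and −0.35 and for TOP2A 0.28, −0.18 and −0.24. Each of these was over WT in replicate 1 and under it in replicates 2 and 3, a pattern found in 26 of 34 mitotic genes (76.5%), in 3 of 22 S-phase genes (13.6%) and in 8.95% of tested genes. PCNA was one of the 3, at 0.17, −0.22 and −0.02, and so were the nucleotide genes RRM2 (0.16, −0.30 and −0.04) and TYMS (0.34, −0.12 and −0.13). With 1 pair per replicate number, differences between the pairs were not tested. Numbers 2 and 3 were not told apart by correlation, so the contrast between those pairs rests on the labels alone.

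**Figure D4:**
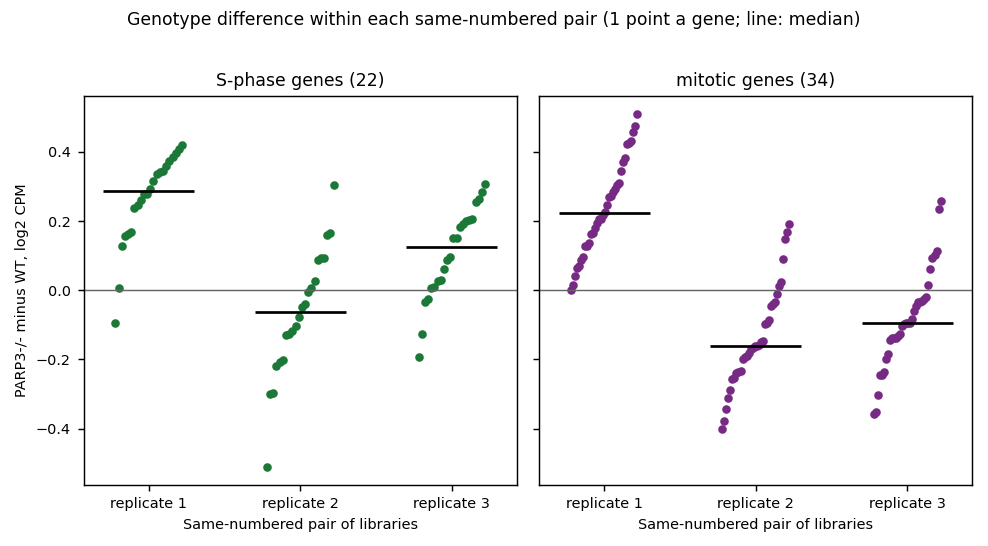
Log2 CPM of PARP3-/- minus WT (vertical axis) within each pair of libraries with the same replicate number, 1 point per gene and a line at the median, for the S-phase genes (left) and the mitotic genes (right). Points lie mostly above 0 in replicate 1, and the mitotic genes lie mostly under 0 in replicates 2 and 3, with medians of −0.16 and −0.10.

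Because the replicate 1 libraries stood apart, the genotypes were also compared in replicates 2 and 3 alone, a choice made after seeing the data. Of the mitotic genes, 10 of 34 (29.4%) were then lower in PARP3-/- and 0 higher without the block (edgeR, adjusted p under 0.05), against 10.1% and 8.91% of the 17238 genes tested. They were CCNA2, CCNB1 and CDK1, the checkpoint kinase BUB1, the kinetochore genes CENPA and NDC80, the kinesins KIF11 and KIF20A, and MKI67 and TOP2A. The log2 fold change was −0.32 (edgeR adjusted p = 0.00267) for MKI67, −0.30 (edgeR adjusted p = 0.00622) for CCNA2 and −0.38 (edgeR adjusted p = 0.00112) for CENPA. CCNB1 was at −0.22 (edgeR adjusted p = 0.0333), CDK1 at −0.19 (edgeR adjusted p = 0.0441) and TOP2A at −0.21 (edgeR adjusted p = 0.0417). EXOSC9, which overlaps CCNA2, held 35.0% of the counts of CCNA2, and a gene overlapping KIF20A held 32.7% of those of KIF20A. With the block, 17 mitotic genes were lower (50%, background 15.4%) and PRC1 was higher at 0.22 (edgeR adjusted p = 5.34e-04) (background 14.5%). These calls rest on 2 libraries per genotype. With the block, so few libraries leave almost no spread of a single gene to measure. The errors then rest largely on a spread shared over genes, and the p-values say little on that of each gene.

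In replicates 2 and 3 the S-phase genes were called in both directions. CDC25A was lower, at −0.36 (edgeR adjusted p = 0.0209), and CDT1 higher, at 0.29 (edgeR adjusted p = 0.00724), without the block, and the other 20 were not called. The block called 6 higher (27.3%), the same 6 genes as in all libraries, and 3 lower (13.6%), namely CDC25A, CCNE2 at −0.15 (edgeR adjusted p = 0.0227) and RRM2 at −0.17 (edgeR adjusted p = 0.00825). All 9 genes called with the block over the 6 libraries were also called over these 4. The 4 are part of the same 6 libraries, so this is no separate support. The median log2 fold change in replicates 2 and 3, without the block, was 0.02 for the S-phase genes and −0.13 for the mitotic genes.

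Other genes of both processes were read beside these, from lists made by function. Of 42 other replication genes, 38 differed by replicate number, all lower in replicate 1 (90.5%, backgrounds 35.3% and 18.8%). ORC2 to ORC5, subunits of the origin recognition complex, were the 4 that did not pass. The median replicate 1 difference of the 42 was −0.74 on the log2 scale. This was nearer to that of the mitotic genes (−0.60) than to that of the 22 S-phase genes (−1.08). Genotype without the block called 0 of the 42 (background 4.7%). With the block 14 were higher (33.3%, background 11.8%) and 1 lower (2.38%, background 12.5%). Among the 14 were the polymerase subunits POLD1 (0.24 (adjusted p = 0.00473) in edgeR with the block), POLD3 (0.16 (adjusted p = 0.0373)) and POLE (0.20 (adjusted p = 0.0130)), the ligase LIG1 (0.29 (adjusted p = 0.00318)) and ORC1 (0.25 (adjusted p = 0.0115)). POLD2, another subunit of polymerase delta, was the one called lower, at −0.16 (adjusted p = 0.0303). Without the block, the smallest p of the higher genes belonged to ORC2, at 0.15 (standard error 0.07, edgeR adjusted p = 0.311), and LIG1, at 0.28 (standard error 0.20, edgeR adjusted p = 0.595). Those of the lower genes were POLD2, at −0.16 (standard error 0.13, edgeR adjusted p = 0.652), and the kinase CDC7, at −0.12 (standard error 0.20, edgeR adjusted p = 0.873).

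Of 52 other mitosis genes, 49 differed by replicate number, all lower in replicate 1 (94.2%, backgrounds 35.3% and 18.8%), and CIT, CDC25B and BORA did not. Genotype without the block called 0 in edgeR (background 4.7%), where 2 had an unadjusted p under 0.05 (background 16.3%), and 2 in DESeq2. These were CIT, the citron kinase of the cleavage furrow, at 122, 136 and 138 CPM in WT and 162, 167 and 159 CPM in PARP3-/- with a log2 fold change of 0.30 (standard error 0.08, edgeR adjusted p = 0.0925), and CDC25B, a CDK1 phosphatase, at 109, 109 and 112 CPM in WT and 94.8, 92.5 and 87.6 CPM in PARP3-/- with −0.26 (standard error 0.07, edgeR adjusted p = 0.0978). In both the genotypes did not overlap, as in 22.8% of tested genes. With the block, 3 were higher (CIT, KNL1 and CKS1B, 5.77%) and 2 lower (CDC25B and RACGAP1, 3.85%), against backgrounds of 11.8% and 12.5%. KNL1, which recruits the checkpoint to the kinetochore, was at 0.29 (standard error 0.21, edgeR adjusted p = 0.611) without the block and 0.32 (adjusted p = 0.0127) with it. RACGAP1, a partner of KIF23 in cytokinesis, was at −0.25 (standard error 0.25, edgeR adjusted p = 0.735) and −0.23 (adjusted p = 0.0255).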

How the data were processed

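RNA from 3 WT and 3 PARP3-/- LN229 cultures was measured by sequencing of ribosome-depleted, strand-specific libraries (the labels name polyA RNA). The authors trimmed reads with cutadapt 1.10, removed ribosomal reads with Bowtie2 2.2.8, aligned to hg38 with STAR 2.5.3a and deposited raw counts per Ensembl gene from HTSeq 0.6.1p1. A further 12 columns of normalized values and 3 columns of the authors' own comparison (log2 ratio, p-value and adjusted p-value) were not used.

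The members and lists were chosen with earlier results of these data known. Counts were analysed in R 4.3.3 with edgeR 4.0.16 (TMM, filterByExpr with a minimum count of 10, quasi-likelihood test, Benjamini-Hochberg adjustment over 17144 genes, calls at adjusted p under 0.05). The study used DESeq2 1.16.1, and DESeq2 1.42.0 was an alternative here, with RLE scaling, no filter, a mean count of at least 50, a stricter call (adjusted p under 0.001 and log2 fold change beyond 1), a replicate block and each library left out. Replicate numbers come from the labels. Every same-numbered pair correlated at over 0.1 in its deviations (0.268 to 0.703), and the numbers were taken to pair the libraries. Deviations within a genotype sum to 0, so a shared departure of replicate 1 alone raises the correlations among numbers 2 and 3. The limit of 0.1 therefore cannot show that number 2 pairs with 2 and number 3 with 3, which rests on the labels. WT replicate 2 with PARP3-/- replicate 3 (0.444) and WT replicate 3 with PARP3-/- replicate 2 (0.284) correlated as well, so that numbers 2 and 3 were not told apart. No libraries agreed within sampling noise (chi-square of 3.80 per degree of freedom for the closest, PARP3-/- replicates 2 and 3). Differences within pairs are on log2(CPM + 0.1). Named genes were MKI67, TOP2A, CCNB1, CDK1, MCM2 and PCNA, per list the 6 of smallest genotype p with the block, the 5 of smallest p for replicate number and the largest and smallest fold change, per other list the 2 of smallest p in each direction, and PARP3. Further genes were named with their values in view. Transcript lengths came from GENCODE 44 and promoters from RefSeq. The tests were also run on simulated counts, with changes larger than any genotype difference of the members and never a genotype and a replicate change together. That run therefore says nothing on the power for the differences described here.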

Additional observations from a re-analysis of the deposited data

How the results depend on the processing

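Under RLE scaling, a minimum mean count of 50, no minimum at all, the stricter call and each library left out, 0 of the 56 genes were called between genotypes, as in the comparison reported. The same held for DESeq2, which called 2 of the 52 other mitosis genes. Of all 17144 genes tested, DESeq2 called 872 lower and 540 higher. The median of all genes moved by at most 0.03 on the log2 scale. The count of genes that differed by replicate number was 22 S-phase genes under each library left out and 29 to 33 mitotic genes (background 24.9% to 37.2%). In DESeq2 it was 22 and 30 (background 30.5%).

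The replicate block, which follows the pairing of the replicate numbers, called 1 S-phase gene lower and 6 higher, and 1 mitotic gene lower and 1 higher. It called 15 of 42 other replication genes, 5 of 52 other mitosis genes and 5 of 21 G1 genes. The model without it called 0 in each list. Of all tested genes the block called 12.5% lower and 11.8% higher. DESeq2 with the replicate block called 1 S-phase gene lower and 7 higher, and 0 mitotic genes lower and 2 higher. It called 9 other replication genes, 4 other mitosis genes and 5 G1 genes. Of all 17144 genes tested, it called 1359 lower and 1295 higher. With the block, 8 members were called by both tools. Under the stricter call (adjusted p under 0.001, log2 change beyond 1), the block called 0 members. PARP3 passed the threshold with the block (−0.39). AURKB, near 0, changed sign with the block (0.00186, and 0.00516 in DESeq2).

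With both replicate 1 libraries left out, which was chosen after seeing the data, 1 S-phase gene was lower and 1 higher, and 10 mitotic genes were lower. Of the other lists, 6 of 42 replication genes, 15 of 52 mitosis genes and 6 G1 genes were called. The backgrounds were 10.1% lower and 8.91% higher. With the block added, the counts were 3 and 6 S-phase genes, 17 and 1 mitotic genes, 14, 23 and 11. The backgrounds with the block were 15.4% lower and 14.5% higher. BIRC5 was then at −0.00117, and at −0.00101 with the block. The causes were not tested.

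Leaving out single libraries moved the median of the S-phase genes between −0.23 (without WT replicate 1) and 0.32 (without WT replicate 2), and 0.29 without PARP3-/- replicate 1. That of the mitotic genes moved between −0.25 (without WT replicate 1) and 0.11. Single fold changes were followed only for the members named by the rule above, and not for the rest of the 56. Among those named, leaving out single libraries changed the sign of 17 uncalled fold changes, whose log2 values ranged over −0.26 to 0.0291 (TOP2A), −0.35 to 0.0205 (CCNB1), −0.33 to 0.0898 (CDK1), −0.0923 to 0.41 (MCM2), −0.41 to 0.21 (PCNA), −0.0403 to 0.54 (TK1), −0.00886 to 0.46 (MCM7), −0.66 to 0.0163 (CDC25A), −0.10 to 0.46 (E2F1), and −0.29 to 0.44 (E2F2), −0.22 to 0.40 (GINS2), −0.0642 to 0.33 (BUB1B), −0.0877 to 0.34 (PLK4), −0.36 to 0.20 (MYBL2), −0.19 to 0.16 (AURKB), −0.24 to 0.0962 (FOXM1) and −0.19 to 0.26 (BIRC5). CDT1, PRC1, CENPA, CENPF, NDC80 and MKI67 kept their sign under each library left out. Without the block, the width of the intervals limits what could be detected. Every member lay far above 3 counts, and the part of depth was not tested.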

Other observations

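The genes upstream of these waves behaved less uniformly. Of 25 G1 cyclins, CDK inhibitors, pocket proteins and related regulators, 22 were in the table and 21 were tested (CDKN2A, CDKN2B and CDKN2C were not analysed here). By replicate number 13 differed (35.3% of all tested genes did), 10 lower and 3 higher in replicate 1 (edgeR, adjusted p under 0.05, backgrounds 18.8% and 16.4%), with a median log2 difference of −0.14. CCND1, the D-type cyclin that starts G1 progression, was at 689, 1211 and 957 CPM in WT and 784, 1557 and 1314 CPM in PARP3-/-, and its replicate 1 difference was −0.75 (standard error 0.07, edgeR adjusted p = 7.17e-05). CCND3 fell with it (−0.83), while CDK4 was at −0.14 (standard error 0.06, edgeR adjusted p = 0.0893). The genes higher in replicate 1 were CDKN1B (p27), an inhibitor of CDK2, the pocket protein RBL2 (p130), which holds resting cells out of the cycle, and E2F5. CDKN1B was at 91.5, 75.5 and 81.4 CPM in WT and 78.6, 64.0 and 63.6 CPM in PARP3-/-, a difference of 0.26 (standard error 0.05, edgeR adjusted p = 0.00812). RBL2 was at 86.7, 73.9 and 77.0 CPM in WT and 94.2, 77.4 and 77.8 CPM in PARP3-/-, a difference of 0.24 (standard error 0.05, edgeR adjusted p = 0.0108). E2F5 was at 23.8, 14.7 and 15.5 CPM in WT and 22.7, 16.0 and 17.6 CPM in PARP3-/-, a difference of 0.55 (standard error 0.08, edgeR adjusted p = 6.93e-04). In RBL2 and E2F5 both replicate 1 libraries lay above the 4 others, as in 22.4% of tested genes. In CDKN1B the PARP3-/- one lay under WT replicate 3. RBL1 (p107), the pocket protein of cycling cells, went the other way, at −0.63 (standard error 0.06, edgeR adjusted p = 1.37e-04).

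Between genotypes, 0 of these 21 genes were called without the block, and 2 had an unadjusted p under 0.05 (backgrounds 4.7% and 16.3%). These were E2F7 at 0.23 (standard error 0.08, edgeR adjusted p = 0.233) and GAS1 at −0.38 (standard error 0.15, edgeR adjusted p = 0.271). RB1 was at 0.12 (standard error 0.08, edgeR adjusted p = 0.530). With the block, CCND1 (0.34 (adjusted p = 0.00394)), CDK6 (0.28 (adjusted p = 0.00539)) and E2F7 (0.23 (adjusted p = 0.0131)) were higher in PARP3-/-, and CDKN1B (−0.27 (adjusted p = 0.00285)) and GAS1 (−0.39 (adjusted p = 0.0108)) were lower. These shares of 14.3% and 9.52% stand beside backgrounds of 11.8% and 12.5%. Ribosome depletion, which the library protocol names, keeps the replication-dependent histone transcripts that carry no poly(A) tail, whereas the labels name polyA RNA. Of 67 histone genes in the table, 55 were tested and 47 differed by replicate number, 46 of them lower in replicate 1 (backgrounds 35.3% and 18.8%). The median log2 difference was −0.57. Between genotypes, 0 of the 55 were called without the block (background 4.7%), and they were not read with the block. Their summed level was 10260, 15971 and 13443 CPM in WT and 9534, 14048 and 13301 CPM in PARP3-/-.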
